A study of Mus musculus with 2 samples.

Results

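The 9 genes described here are 6 ligand genes of the EGF family (Areg, Ereg, Hbegf, Tgfa, Btc and Nrg1) and 3 receptor genes of the ERBB family (Egfr, Erbb2 and Erbb3), found by symbol among 55487 gene rows of a count table. RNA came from MC3T3-E1 cells, a mouse calvarial line of osteoblastic character. The PTH library was made from cells given 10 nM parathyroid hormone (PTH) and the untreated library from cells without it, both labelled 1 h. Both groups were grown with 10% serum, which itself can hold growth factors, and PTH was added 24 h after 25000 cells per cm2 were seeded. With 1 library per condition, the spread between cultures is unknown: nothing below was checked in a replicate, and there are no p-values. The PTH library held 70036872 counts and the untreated library 66302211. Of the 9 genes, 7 reached the total of 20 counts over both libraries that a row needed to be compared, as did 16408 rows in all. Btc and Erbb3 did not.

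EGF family ligands are made as membrane-anchored precursors that proteases release from the cell surface. The released ligands bind ERBB receptors, which pair up, phosphorylate each other and signal through the Ras to ERK and the PI3K to AKT routes. Amphiregulin, the product of Areg, is known as a PTH-responsive gene product of osteoblasts, and EGF receptor signalling in osteoblastic cells is known to favour their proliferation and to restrain their differentiation. ERBB2 has no known ligand of its own and acts as a partner of the other receptors, and ERBB3 has little kinase activity and binds neuregulins.

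Areg had the ratio farthest from 1 of the 7 compared members (scaled counts with PTH divided by those untreated), and its promoter is shown for that reason. Those of Tgfa and Egfr, whose ratios were 1.08 and 0.874, stand beside it as windows with none of the marked motifs. Their contrast with Areg in motifs thus follows from that choice. Each is the 250 bases before the annotated start in RefSeq (build GRCm38.p6, the assembly also called mm10), all on the plus strand, at chr5:91139349-91139598 for Areg, chr6:86194972-86195221 for Tgfa and chr11:16751953-16752202 for Egfr. Capitals mark TGACGTCA (the cyclic AMP response element, CRE, bound by CREB-family factors), its shorter core TGACG or the reverse complement, and TATAAA.
Areg: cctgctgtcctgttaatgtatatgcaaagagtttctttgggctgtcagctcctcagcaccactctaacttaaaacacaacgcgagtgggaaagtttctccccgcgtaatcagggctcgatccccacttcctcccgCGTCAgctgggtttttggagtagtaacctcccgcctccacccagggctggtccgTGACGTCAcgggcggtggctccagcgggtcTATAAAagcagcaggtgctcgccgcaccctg
Tgfa: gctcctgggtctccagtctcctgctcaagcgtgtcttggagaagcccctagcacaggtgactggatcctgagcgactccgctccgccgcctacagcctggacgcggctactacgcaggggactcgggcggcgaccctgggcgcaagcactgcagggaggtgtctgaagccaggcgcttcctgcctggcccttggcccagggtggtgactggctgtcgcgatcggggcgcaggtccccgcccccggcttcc
Egfr: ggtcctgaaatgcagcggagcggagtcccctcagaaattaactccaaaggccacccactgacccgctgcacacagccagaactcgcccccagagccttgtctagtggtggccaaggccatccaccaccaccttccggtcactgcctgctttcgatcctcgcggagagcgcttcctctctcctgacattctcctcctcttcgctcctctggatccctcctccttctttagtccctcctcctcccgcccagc

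The Areg window held a full CRE from base -61 to base -54, counted back from the start, a further TGACG core from -115 to -111 on the opposite strand, and TATAAA from -31 to -26. The full CRE is a palindrome and so holds the core on each strand. Of 32851 RefSeq windows of the same length, 1.55% held TGACGTCA, 17.8% held TGACG on either strand and 7.59% held TATAAA on the sense strand. RefSeq windows were matched for 5 of the 9 members, Areg, Btc, Tgfa, Egfr and Erbb2, and among these only Areg held the full CRE. Btc and Erbb2 each held a TGACG core, and Tgfa and Egfr held none. None of these 5 windows held the AP-1 site TGANTCA (6.75% of all windows) or the NR4A site AAAGGTCA (1.34%), on either strand. Outside the 9, the window of the family's ligand gene Epgn held a TGACG core and TATAAA. A match is a description of these letters only. Of 324 compared rows whose symbol had a window with the full CRE, 5.25% had more reads in the PTH library by the rule of size given below, against 4.41% of the 10757 compared rows with any window.

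Among the ligand genes, Areg had more reads in the PTH library, while Ereg and Hbegf, the ligand genes with the most reads, had somewhat fewer and Tgfa and Nrg1 differed by less than their counting error. Areg (ENSMUSG00000029378, chr5:91139599-91148432, plus strand, mm10) had 207 counts in the PTH library, against 19 counts in the untreated library. Scaled by TMM library sizes, which equalise the bulk of the genes between libraries, this was 2.99 CPM (counts scaled to a common library size) with PTH and 0.283 CPM untreated, a ratio of 10.6. The 95% exact interval of that ratio, 6.61 to 17.9, reflects counting error alone, as if every read were independent, and so do all intervals in brackets below. A row was called when its whole interval lay beyond 1.5-fold. By this rule 5.39% of the 16408 compared rows had more reads in the PTH library and 3.54% had fewer. Of the 7 compared members, 1 (Areg) had more reads and none had fewer, and their median log2 ratio was 0.01, against 0.00 over all compared rows.

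The Areg row had few reads in the untreated library, and rows of its size were called more often than rows of the size of most other members. Among rows with a total of 100 to 300 counts, where Areg lies, 8.21% had more reads by the rule, against 2.81% of rows with 1000 to 10000 counts, where Ereg, Hbegf, Nrg1, Egfr and Erbb2 lie. Tgfa, with a total of 361 counts, lies in neither range. Of the 1134 compared rows that had 15 to 25 counts untreated, 59 had more reads by the rule and 5, Areg included, had a ratio at or above that of Areg. Of the 15898 compared rows with at least 10 counts untreated, 21 had a higher ratio than Areg, and 142 of all 16408 compared rows did. With the interval widened for an assumed coefficient of variation of 0.2 between cultures, Areg stayed above the limit, at 5.01 to 21.3. In RNA pooled over a culture, more Areg RNA per cell and more cells that make it cannot be told apart.

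Ereg (ENSMUSG00000029377, chr5:91074622-91093646, plus strand) encodes epiregulin, a ligand of EGFR and ERBB4, and was the ligand gene with the most reads in both libraries. It had 3685 counts in the PTH library and 4033 in the untreated library, or 53.3 and 60.1 CPM, a ratio of 0.887 (0.848 to 0.928). Hbegf (ENSMUSG00000024486, chromosome 18) encodes heparin-binding EGF-like growth factor, also a ligand of EGFR and ERBB4. Its counts were 1980 with PTH and 2722 untreated, or 28.6 and 40.5 CPM, a ratio of 0.706 (0.666 to 0.749). Hbegf was thus 1.42-fold lower in the PTH library, the lowest ratio of the 7 compared members. Its interval crossed the limit of 1.5-fold, so it was not called. With the same assumed variation of 0.2, the interval of Hbegf was 0.405 to 1.23 and that of Ereg 0.509 to 1.55, so both then included 1.

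Tgfa (ENSMUSG00000029999, chr6:86195223-86275719, plus strand) encodes transforming growth factor alpha, an EGFR ligand. It had 190 counts in the PTH library and 171 in the untreated library, a ratio of 1.08 (0.873 to 1.33). Nrg1 (ENSMUSG00000062991, chr8:31814551-32884029, minus strand) encodes neuregulin 1, a ligand of ERBB3 and ERBB4, and has 18 annotated transcripts, which the table sums. It had 778 counts with PTH and 693 untreated, a ratio of 1.09 (0.983 to 1.21). The intervals of Tgfa and Nrg1 both include 1. Btc (ENSMUSG00000082361, chr5:91357261-91402994, minus strand), which encodes betacellulin, a ligand of EGFR and ERBB4, had 4 counts in the PTH library and was listed at 0 untreated. Over all rows of the count table, 437 stood at the same 4 and 0 and 366 at the reverse, and no fold is given for Btc.

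**Figure D1:**
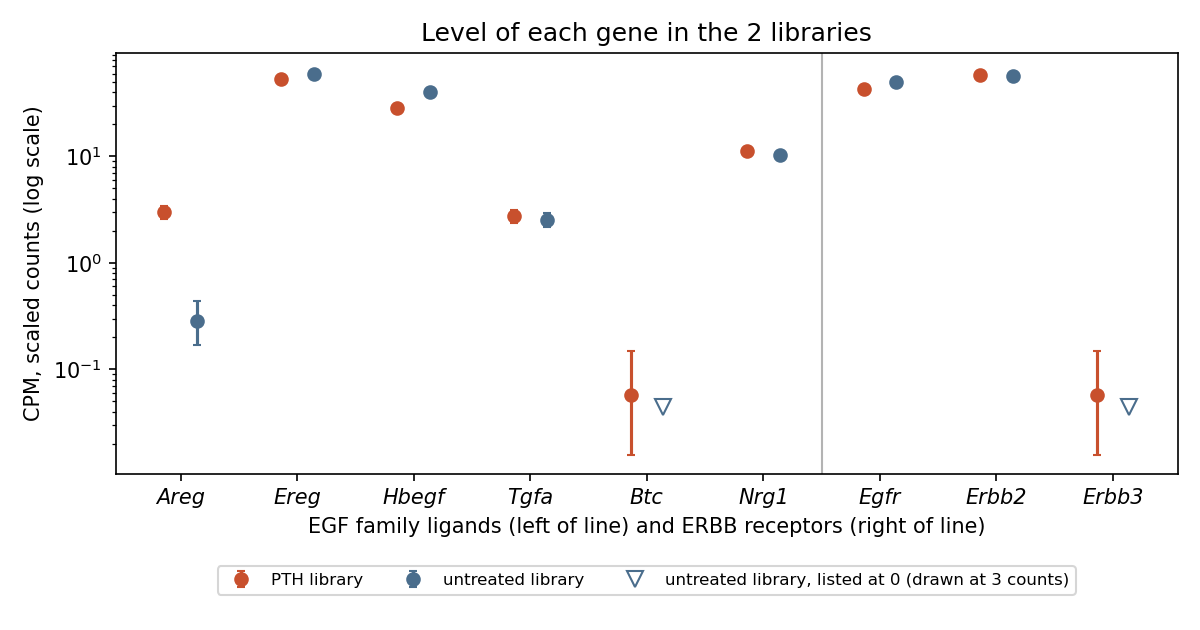
Level of the 9 genes in the PTH and the untreated library, in CPM on a log axis (1 library each; bars are 95% exact Poisson intervals; open triangles mark genes listed at 0, drawn at 3 counts). Areg lies at 2.99 CPM with PTH and 0.283 untreated. Hbegf lies at 28.6 CPM with PTH and 40.5 untreated. Ereg and Egfr are also somewhat lower with PTH, with bars that do not overlap. The bars of Nrg1, Tgfa and Erbb2 overlap between the 2 libraries.

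Among the receptor genes, Egfr and Erbb2 were well read in both libraries and Erbb3 was almost absent. Egfr (ENSMUSG00000020122, chr11:16752203-16918158, plus strand), the receptor for Areg, Ereg, Hbegf, Tgfa and Btc products, had 2998 counts in the PTH library and 3330 in the untreated library, or 43.4 and 49.6 CPM, a ratio of 0.874 (0.832 to 0.919). Erbb2 (ENSMUSG00000062312, chr11:98412470-98437716, plus strand) had 4006 and 3865 counts, or 58.0 CPM with PTH and 57.6 untreated. Its ratio was 1.01 (0.963 to 1.05) and fell below 1, to 0.981, when libraries were scaled by total counts and to 0.988 with upper-quartile factors, with intervals that include 1 in each case. Erbb3 (ENSMUSG00000018166, chr10:128567523-128589652, minus strand) had 4 counts with PTH and was listed at 0 untreated. Erbb4, the remaining receptor gene of the family, was listed at 0 in both libraries, so the receptor genes that bind neuregulins directly had 4 counts with PTH and 0 untreated in sum. By a 1-sided 95% limit, counting error by itself would let a listed 0 stand for as many as 3 counts. That is 0.0434 CPM in the PTH and 0.0447 CPM in the untreated library. The 2-sided 95% interval reaches 0.0534 and 0.0550 CPM. The table may also hold zeros of another source.

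The ratios of members were then compared with each other, since the ratio of 2 ratios does not depend on how the libraries are scaled. The 7 compared members make 21 pairs, and the ratios differed beyond counting error in 15 of them, each by its own 95% interval. The same 15 pairs were found with intervals of 99.76% that allow for the 21 pairs. Of the 15 pairs without Areg, 9 differed by either interval. Neither interval was widened for variation between cultures, which 1 library per condition leaves unknown. Areg stood apart from each of the other 6, by 9.69-fold (5.97 to 16.6) over Nrg1, the next in order, and by between 9.31-fold and 25.5-fold over Hbegf, the last. After Areg the order ran from Nrg1 to Tgfa, Erbb2, Ereg, Egfr and Hbegf. Neighbours in that order did not differ beyond counting error between Nrg1 and Tgfa (1.01, 0.797 to 1.28), Tgfa and Erbb2 (1.07, 0.863 to 1.33) or Ereg and Egfr (1.01, 0.949 to 1.09). Erbb2 was above Ereg by 1.13-fold (1.06 to 1.21) and Egfr above Hbegf by 1.24-fold (1.15 to 1.34).

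**Figure D2:**
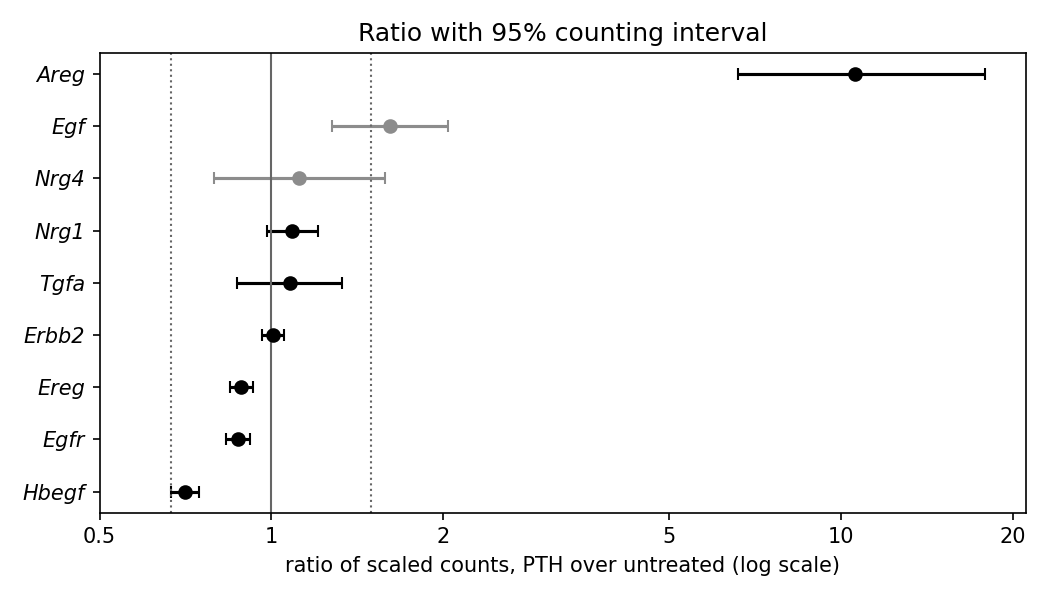
Ratio of scaled counts, PTH over untreated, on a log axis, with 95% counting intervals (black, the 7 compared members; grey, Egf and Nrg4). Dotted lines mark 1.5-fold either way. The interval of Areg, 6.61 to 17.9, lies wholly beyond the limit, and that of Hbegf, 0.666 to 0.749, reaches just past it.

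Levels of different genes were compared per kilobase of exonic length, since a longer transcript gives more reads. On the scale of CPM per kilobase, Ereg stood at 12.9 with PTH and 14.6 untreated, Hbegf at 5.93 and 8.39, Areg at 2.46 and 0.233, Nrg1 at 1.09 and 0.997, and Tgfa at 0.424 and 0.393. Areg thus lay below Ereg and Hbegf in the PTH library and also below Nrg1 and Tgfa in the untreated library. The level of Ereg was 5.24 times that of Areg with PTH and 62.5 times untreated. Of the summed level of the 6 ligand genes, Areg held 10.8% with PTH and 0.948% untreated, Ereg 56.6% and 59.2%, and Hbegf 26.0% and 34.1%. As a share of ligand counts without the correction for length, Areg held 3.02% with PTH (2.63 to 3.46%, exact binomial interval) and 0.249% untreated (0.150 to 0.388%).

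The gain in Areg reads was smaller than the drop in the sum of the other ligand genes. That drop came from Ereg and Hbegf, neither of which was called, while Nrg1, Tgfa and Btc had slightly more counts with PTH. Summed over the 6 ligand genes, the level was 22.8 CPM per kilobase with PTH and 24.6 untreated, a ratio of 0.929, and without Areg it was 20.4 and 24.3, a ratio of 0.837. The 6 ligand genes had 6844 counts with PTH and 7638 untreated, a ratio of scaled counts of 0.870 (0.842 to 0.899). Among the receptor genes Erbb2 held 74.3% of the summed level per kilobase with PTH and 71.6% untreated, and Egfr 25.6% and 28.4%. The level of Erbb2 was 2.90 times that of Egfr with PTH and 2.52 times untreated. When the longest annotated transcript was used as the length in place of all exons, Ereg held 46.1% of the ligand level with PTH and 46.5% untreated, and Hbegf 35.4% and 44.8%, so that these 2 genes were nearly level in the untreated library.

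**Figure D3:**
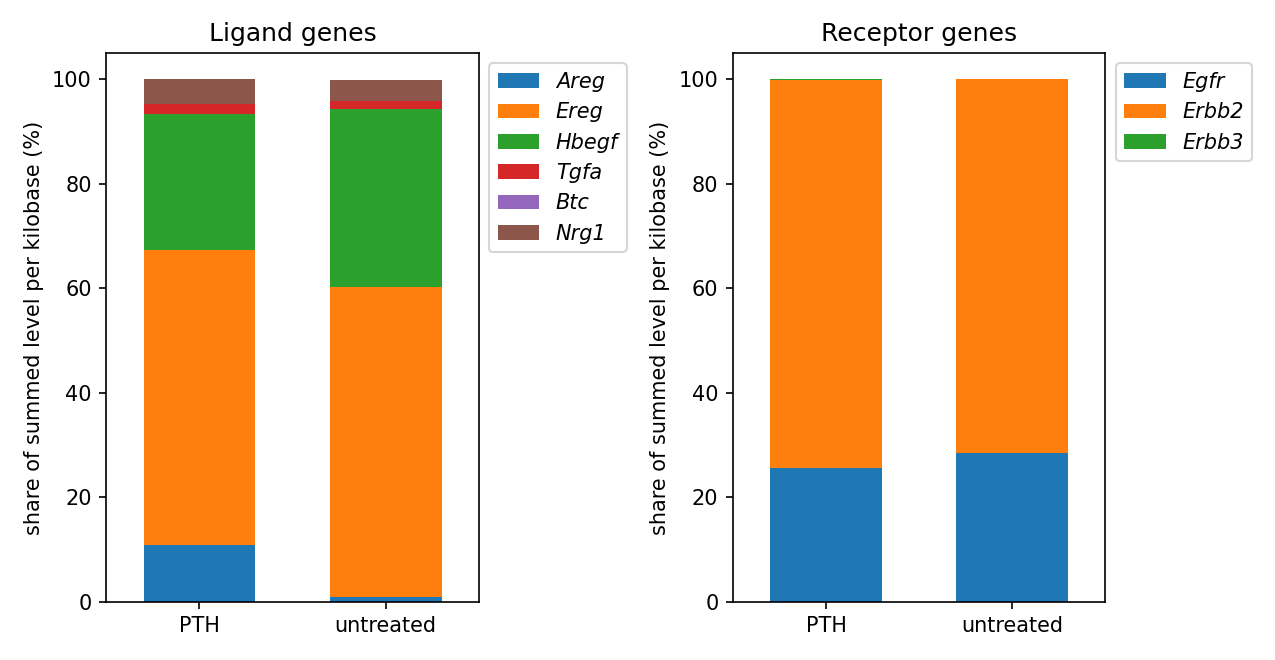
Share of each gene in the summed level per kilobase of the 6 ligand genes (left panel) and of the 3 receptor genes (right panel), in percent, for the PTH and the untreated library. Areg takes 10.8% of the ligand level with PTH and 0.948% untreated, and Erbb2 takes most of the receptor level in both.

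Areg, Ereg and Btc lie in a cluster on chromosome 5 together with Epgn, which encodes the ligand epigen. The adjacent Ereg and Areg differed in their ratio between the 2 libraries. The end of Ereg and the start of Areg are 45953 bases apart, on the same strand, and the ratio of Areg was 11.9-fold that of Ereg (7.42 to 20.2). Epgn, which lies 39407 bases before Ereg, was listed at 0 counts in the PTH library and had 10 untreated, too few to be compared. Within 500000 bases of either end of the cluster lay 34 annotated rows, 9 of which had enough reads, and 4 of these had more reads in the PTH library by the rule, against 5.39% of all compared rows. The window was drawn around the cluster, so Areg is among the 4. All 4 reached the total of 20 counts only through their reads in the PTH library. The share of 4 in 9 was thus partly set by the filter and is no test of the region. Besides Areg they were the chemokine genes Ppbp, with 92 counts with PTH and 7 untreated (ratio 12.8, 5.95 to 32.6), and Cxcl1 and Cxcl5, with 67 and 64 counts with PTH and listed at 0 untreated. The nearest of them, Cxcl1, ends 246484 bases before Areg starts. Mthfd2l, a mitochondrial folate enzyme gene between Cxcl1 and Epgn, had 1468 counts with PTH and 1126 untreated, a ratio of 1.27 (1.17 to 1.37), and was not called. Gm19610, an annotated antisense gene that overlaps the first bases of Ereg on the other strand, had 25 counts with PTH and 59 untreated, a ratio of 0.411 (0.247 to 0.667), and was not called. The overlap covers 3.42% of the exonic length of Ereg, and no source used here says whether strand was used in counting.

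**Figure D4:**
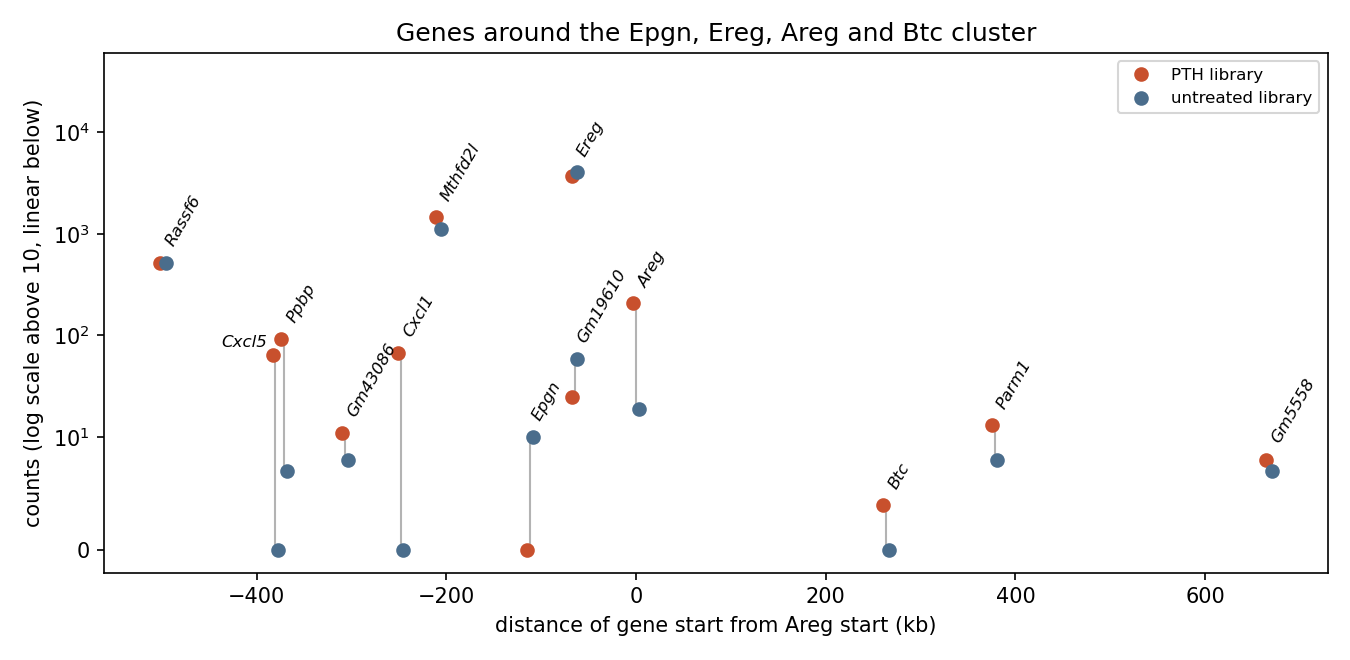
Counts in the PTH and the untreated library of genes around the cluster of Epgn, Ereg, Areg and Btc, against the distance of each gene's start from that of Areg in kilobases (rows with a total of 10 or more counts, and Btc; the vertical axis is logarithmic above 10 and linear below). Areg has 207 counts with PTH and 19 untreated, while Ereg beside it has 3685 and 4033.

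The other ligand genes of the family had few reads or none. Egf, the founding ligand, had 198 counts in the PTH library and 119 in the untreated library, a ratio of 1.62 (1.28 to 2.05), and its interval crossed the limit. Nrg4, a neuregulin, had 75 and 65 counts, a ratio of 1.12 (0.793 to 1.59). Nrg2 and Nrg3 were listed at 0 in both libraries. The exons of Egf and Nrg4 overlap exons of the opposite strand over 9.82% and 8.97% of their length.

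The 5 protein-coding rows whose levels lay nearest to those of Areg over the 2 libraries, by the distance between log2(CPM + 0.1) values, were Pagr1a, Cd14, Adamts16, Med12l and Rbm47. Their counts ran from 142 to 226 with PTH and from 14 to 33 untreated. Cd14, a lipopolysaccharide co-receptor gene, had 173 counts with PTH and 14 untreated, a ratio of 12.0 (6.96 to 22.4). Adamts16, a secreted metalloprotease gene, had 163 and 25, a ratio of 6.33 (4.14 to 10.1). Another gene on the same strand covers 98.7% of the exons of Pagr1a, so its 226 and 19 counts are uncertain. With 2 libraries this likeness is a description of 2 values per gene.

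The other genes of the family and genes that act on the ligands and receptors, or below them, were listed by role, and apart from genes that respond to ERK signalling they differed little between the libraries. Of 87 listed genes 86 were matched by symbol (Nrdc was not) and 82 were compared, of which 7 had more reads in the PTH library, 8 had fewer and 67 were neither, against the background of 5.39% and 3.54%. Their median log2 ratio was -0.02. Without the 22 ERK-induced genes, 60 remained, of which none had more reads and 1, Socs5, had fewer, with ratios from 0.456 for Socs5 to 1.62 for Egf.

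Of 12 compared genes of ligand shedding and presentation none was called, with ratios from 0.712 to 1.22 and a median log2 ratio of 0.07. Timp3, which encodes an inhibitor of the ligand-releasing metalloproteases, had 70703 counts in the PTH library and 93338 in the untreated library, a ratio of 0.736 (0.728 to 0.743). Cd44, a cell surface glycoprotein gene, had 31961 and 25373 counts, a ratio of 1.22 (1.20 to 1.24). Adam17, which encodes the main sheddase of amphiregulin and was picked for that role after its values were seen, had 3354 and 3741 counts, a ratio of 0.871 (0.831 to 0.912).

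Of 18 genes that restrain the receptors 1 had fewer reads by the rule, a share near the 3.54% of all compared rows, and the median log2 ratio was -0.05. Socs5, which encodes a suppressor of cytokine signalling that promotes loss of EGFR, had 3151 counts with PTH and 6715 untreated, a ratio of 0.456 (0.437 to 0.475). Errfi1, which encodes the feedback inhibitor MIG6 of EGFR and was also picked for its role after its values were seen, had 24738 and 21305 counts, a ratio of 1.13 (1.11 to 1.15). None of 19 adaptor, Ras and ERK pathway genes was called. In that list Ptpn11, a phosphatase gene needed for Ras activation, stood at a ratio of 0.935 (0.915 to 0.956). None of 9 genes of the PI3K and AKT route was called either, with Akt1, a survival kinase gene, at 0.970.

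The ERK-induced genes, which growth factor receptors are among the signals to switch on, moved in both directions. Of 22 compared, 7 had more reads in the PTH library, 7 had fewer and 8 were neither, against 5.39% of all compared rows with more and 3.54% with fewer. The median log2 ratio was -0.22. Several of them also respond to cyclic AMP, so the list is not specific to EGF receptor signalling. Fos, an AP-1 subunit gene, had 12081 counts with PTH and 1902 untreated, Spry2, which encodes a brake on growth factor receptor signalling, 5451 and 1320, Ier3, an immediate-early gene, 18170 and 5719, and Plaur, the urokinase receptor gene, 15601 and 5967. In the other direction the zinc finger genes Egr2 and Egr3 had 3846 and 9862 counts with PTH, against 11205 and 26877 untreated. With the assumed variation of 0.2 between cultures, 3 of the 7 (Fos, Ier3 and Spry2) still had more reads by the rule and 2 (Egr2 and Egr3) still had fewer. At that setting 2.89% of all compared rows had more reads and 1.63% had fewer.

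**Figure D5:**
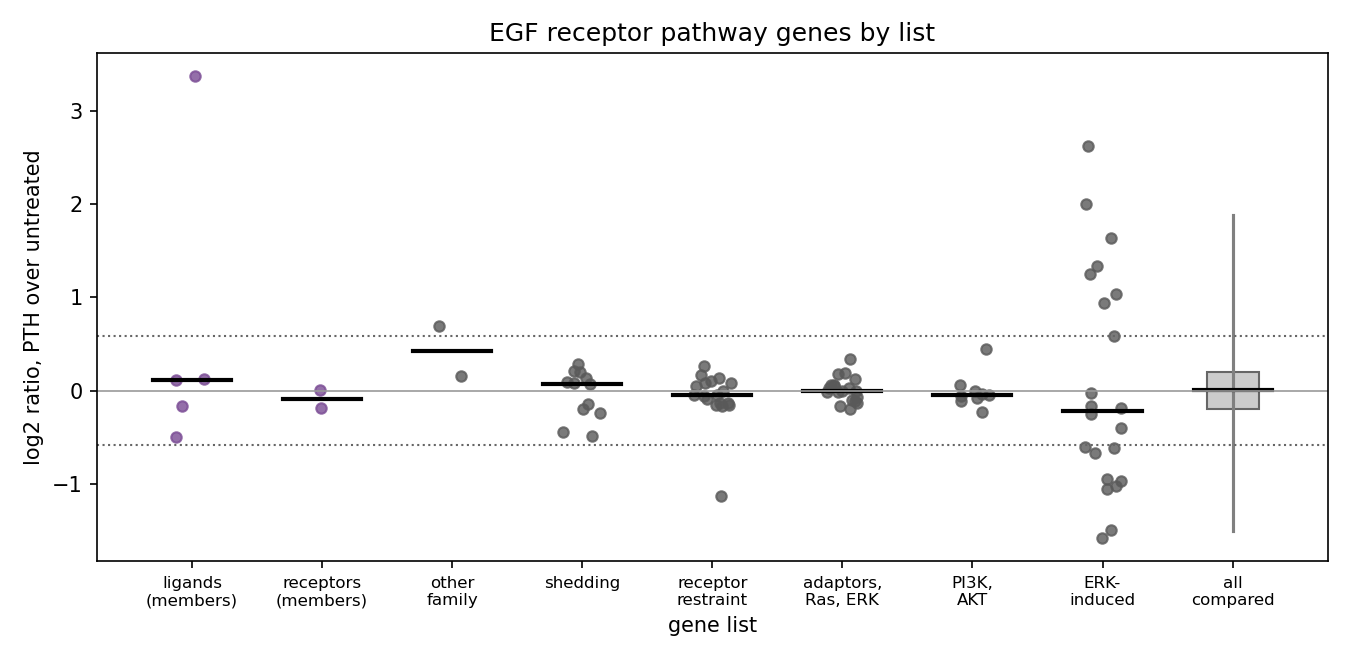
Log2 ratio, PTH over untreated, of each compared gene by list (points; thick bars are list medians), with all compared rows at the right (box, percentiles 25 to 75, from -0.20 to 0.20; line, the range that holds 95% of rows, from -1.51 to 1.88). Dotted lines mark 1.5-fold. Areg, at 3.37, is the highest point, and the ERK-induced genes lie on both sides of 0.

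The labelled cell type was checked against markers. All 12 osteoblast markers had enough reads to be compared, which by itself does not mean a high level. Col1a1, a collagen gene, had the most, with 2093308 counts in the PTH library and 1935295 in the untreated library. Bglap, the osteocalcin gene, had the fewest, with 87 and 57, below Krt14 and Lyz2 (given below) in each library. Each of the other osteoblast markers lay above Krt14 and Lyz2. Sp7, the osterix gene, was the marker called, with fewer reads. Because EGF family ligands are known from epithelia and macrophages, markers of these were summed too. The 9 epithelial markers summed to 4.72 CPM with PTH and 3.11 CPM untreated, with 4 (Krt5, Krt19, Epcam and Cldn4) at 0 in both. Of the 3 epithelial markers compared, Krt8, a keratin gene, had more reads, with 50 counts with PTH and 7 untreated (ratio 6.94, 3.13 to 18.1), Cdh1, the E-cadherin gene, had fewer, with 14 and 42 (0.324, 0.163 to 0.605), and Krt14 was neither, with 247 and 160. The 7 macrophage markers summed to 7.96 and 5.81 CPM, with 4 (Ptprc, Adgre1, Itgam and Tyrobp) at 0 in both. The other 3 were Lyz2, with 338 counts with PTH and 201 untreated, Csf1r, with 155 and 122, and Cd68, with 57 and 67. None of these 3 was called. The 6 neural and Schwann cell markers summed to 15.5 and 12.0 CPM and the 6 endothelial markers to 0.188 and 0.134 CPM. These sums were all higher with PTH, and their part in the result for Areg was not tested.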

How the data were processed

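The values are raw whole-number counts, which the authors deposited as a table of genes by libraries. The aligner HISAT2 and the build mm10 are named, per the submitters' processing notes; the counting tool, annotation and strand setting are not stated in the labels or the file. Gene type, coordinates, exonic lengths and overlaps came from GENCODE M21 (GRCm38).

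Counts were scaled by edgeR TMM sizes (edgeR 4.0.16, R 4.3.3) over rows with a total of 20 or more. A quasi-likelihood fit needs replicates, so none was made. Ratios of scaled counts have 95% exact conditional (Clopper-Pearson) intervals, and pairs of members exact conditional odds ratio intervals (Python 3.11.15, scipy 1.17.1). Reads copied by PCR are not independent, so counting error may be wider. For log2 ratios 0.5 count was added. Alternatives were other scalings (total counts, DESeq2 1.42.0 size factors, upper-quartile factors), 2 other count filters, 2 other fold limits, and intervals widened for assumed variation.

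The members and lists were chosen with earlier results of these data known. All members and other family genes are named, with up to 6 called genes per list by the interval bound farthest from 1, or the 2 with most counts where none was called. Of the genes that rule names, 2 are not reported here.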

Additional observations from a re-analysis of the deposited data

How the results depend on the processing

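Areg had more reads by the rule under all 9 alternatives, with ratios from 10.3 (total counts) to 10.6 (rows with a total of 100 or more). The other fold limits and the widened intervals leave the ratio itself unchanged, and a looser fold limit could not remove the call. Erbb2 fell below a ratio of 1 with total counts (0.981) and upper-quartile factors (0.988), where the scaling alone moves the value. Hbegf, at 0.706, was called lower with a fold limit looser than 1.5, so that 1 member then had fewer reads. At that looser limit 7.39% of all compared rows had fewer reads and 9.11% had more. By the main rule these shares were 3.54% and 5.39%. Among the 82 other pathway genes compared, 4 had fewer reads with an assumed coefficient of variation of 0.1 or a fold limit of 2. At these settings 2.46% and 1.6% of all compared rows had fewer. With a coefficient of 0.2, 3 of the pathway genes had more and 2 fewer, against 2.89% and 1.63% of all compared rows. With the longest transcript as length, the shares of ligand level, with PTH and untreated, were 8.81% and 0.745% for Areg, 46.1% and 46.5% for Ereg, 35.4% and 44.8% for Hbegf, and 7.43% and 6.09% for Nrg1. Without a count filter 5.89% of rows had more and 4.18% had fewer reads by the rule. No paired analysis was possible because each group had 1 library, and none could be left out for the same reason. The 19 untreated counts of Areg limit its ratio.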
